A study of Mus musculus with 8 samples.

Results

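Iron homeostasis in the liver was read through 10 genes: the hepcidin genes Hamp and Hamp2, the ferritin subunits Fth1 and Ftl1, the transferrin receptors Tfrc and Tfr2, the iron exporter Slc40a1, and the hepcidin regulators Hfe, Bmp6 and Id1. Every probe set annotated to one of these genes was taken, which gave 23 of the 45101 probe sets on the array. 20 of them entered the comparison and the other 3 are Tfrc sequences that serve as array controls. Of the 20, 3 are annotated to several genes and were kept: all 3 read Ftl1 together with the ferritin sequence Ftl1-ps2, and 1 of these also with 3 Mir692 loci. The experimental livers came from 4 young adult males (animals 69, 72, 73 and 81) of genotype txnrd1 cond/- albCre1. In these animals the albumin promoter drives Cre in hepatocytes only, so that txnrd1, the gene of cytosolic thioredoxin reductase, is disrupted in hepatocytes while the other liver cells keep the cond allele. They are called Txnrd1-deficient livers here. The control livers came from 4 young adult males (animals 70, 71, 80 and 82) of genotype txnrd1 cond/+ albCre0, which carry no Cre transgene and keep both alleles functional. All 8 mice were singly housed for 10 days under 14 h of light and 10 h of dark and harvested in a fixed half-hour of the afternoon, and each whole liver was hybridized to 1 array.

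Systemic iron is set by hepcidin, a peptide hormone that hepatocytes secrete. Hepcidin binds ferroportin, the product of Slc40a1 and the known cellular iron exporter of mammals, and causes its removal from the cell surface, so that iron is held in macrophages, gut and liver. Hamp transcription is raised by iron through BMP ligands and SMAD proteins, with HFE and transferrin receptor 2 taking part in iron sensing, and by inflammation through IL6 and STAT3. Inside cells, ferritin made of heavy (Fth1) and light (Ftl1) chains stores iron, and transferrin receptor 1 (Tfrc) brings it in. The mouse has a second hepcidin gene, Hamp2, next to Hamp.

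The deposited values are linear ratios. The 8 values of a probe set centre on about 1, as they do after division by its own median, so a ratio of 1 is a probe set's usual value and levels cannot be compared between genes. The array medians lay between 0.997 and 0.999. Over all 45037 probe sets tested, 12 (0.0266%) differed between the genotypes at 1.5-fold and a Benjamini-Hochberg adjusted p of at most 0.05 in limma, and 253 (0.562%) at 1.5-fold and an unadjusted p of at most 0.05, the thresholds in the study's methods. Animals 72 and 82 stood apart from the rest, with 4206 and 4861 probe sets more than 1.5-fold from a ratio of 1, against 573 to 2344 in the other 6 livers. The Txnrd1 probe sets did not move together: one averaged 1.43 ± 0.405 in Txnrd1-deficient and 0.670 ± 0.201 in control livers, another 0.748 ± 0.174 and 1.21 ± 0.238, and the third 0.891 ± 0.0965 and 1.18 ± 0.125 (SD, n = 4 each). Where they lie relative to the deleted part of txnrd1 is not stated, so they do not check the labels.

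The sequences just upstream of the hepcidin genes are shown because Hamp carried the widest differences among these livers and Hamp2 is its near copy. The 250 bases before each transcript start are from RefSeq (GRCm38.p6), read 5′ to 3′ on the minus strand of chromosome 7, where the starts lie 19848 bases apart. Capitals mark GGCGCC, the core of the BMP response element, and TTCNNNGAA, the STAT site, both searched on both strands.
Hamp, chr7:30944030-30944279: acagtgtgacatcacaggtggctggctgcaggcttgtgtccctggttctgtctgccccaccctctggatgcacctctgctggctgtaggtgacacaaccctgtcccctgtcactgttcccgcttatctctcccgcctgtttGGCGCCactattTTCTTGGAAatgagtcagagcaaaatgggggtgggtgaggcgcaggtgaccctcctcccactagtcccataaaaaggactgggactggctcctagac
Hamp2, chr7:30924182-30924431: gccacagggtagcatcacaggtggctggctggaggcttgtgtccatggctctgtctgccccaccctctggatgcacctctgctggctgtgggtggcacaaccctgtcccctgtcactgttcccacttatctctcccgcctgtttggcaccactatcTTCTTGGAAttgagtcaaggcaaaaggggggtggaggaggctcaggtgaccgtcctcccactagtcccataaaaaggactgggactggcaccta
The 2 sequences shared 227 of 247 aligned bases (91.9%). The STAT letters stood 97 bases before the start of Hamp and 94 before that of Hamp2. GGCGCC stood 109 bases before the start of Hamp and was not found in this stretch of Hamp2, where 1 of the 20 substitutions, G145A (the Hamp base first, positions counted from 1 at the 5′ end of the Hamp sequence), lies in those letters. Both motifs are short. In all 32851 RefSeq promoter windows of 300 bases (250 before and 50 after a start), GGCGCC occurred in 11.9% and TTCNNNGAA in 8.3%. Of the 10 genes, 8 had windows in the table, 12 in all, and GGCGCC was found in 1 other of them, of Tfrc. The core of the antioxidant response element, TGANNNNGC, to which Nrf2 binds and which 41.3% of all windows hold, occurred in the windows of Hfe and Bmp6 and not in those of Hamp, Hamp2, Fth1, Ftl1, Tfrc or Tfr2. The iron response element loop CAGTGN, searched in the 50 bases after the start, was found in 1 window of Tfr2 and in 7.08% of all windows. The DNA more than 250 bases before each start and the rest of each transcript, with its 3′ end, were not searched. Slc40a1 and Id1 had no window. A gene without a match here may therefore still carry the element further upstream or elsewhere in the gene. These are letter matches and not measured sites.

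Hamp mRNA spanned 112-fold among the 8 livers by 1 probe set and 93.7-fold by the other, and was not separated by genotype. The Hamp probe set 1419196_at had ratios of 0.199, 4.57, 1.79 and 2.97 in Txnrd1-deficient livers 69, 72, 73 and 81, against 0.0609, 0.139, 0.0648 and 6.85 in control livers 70, 71, 80 and 82. Livers 72, 73, 81 and 82 were thus high and livers 69, 70, 71 and 80 low, with the highest value of all in a control liver. The range overlapped between the genotypes. The highest liver was 112 times the lowest over all 8 livers, 23.0 times within the Txnrd1-deficient livers and 112 times within the control livers. By the SD of its log2 ratio, this probe set ranked 3 of 45037 over the 8 livers, 8 within the Txnrd1-deficient livers and 5 within the control livers.

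The second Hamp probe set, 1419197_x_at, gave the same order at the high end, with 0.210, 4.65, 1.78 and 2.48 in Txnrd1-deficient livers 69, 72, 73 and 81 and 0.0645, 0.139, 0.0745 and 6.05 in control livers 70, 71, 80 and 82. The suffix _x_at marks probes that can also bind other transcripts. Between genotypes the geometric means differed 5.99-fold (log2 difference 2.58 ± 1.49 SE, n = 4 each) for the first probe set and 5.71-fold (2.51 ± 1.43 SE) for the second. Neither passed, with adjusted p = 1.00 in limma for both and exact 2-sided permutation p = 0.286 and 0.257. The smallest p that 4 against 4 livers can give is 0.0286.

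Leaving out either of 2 animals changed the call for Hamp. Without control liver 82 the log2 differences of the Hamp probe sets were 4.18 and 4.04, and without Txnrd1-deficient liver 69 they were 3.55 and 3.44. In each of these fits both probe sets met the study's thresholds, 1.5-fold and an unadjusted p of at most 0.05. The values without one of the other animals ran down to 1.91 and 1.86. With all livers, both probe sets also met the study's thresholds when only probe sets of larger SD were kept. That filter changes the variance that limma borrows. With quantile normalization the log2 differences were 1.68 and 1.74, and neither probe set passed. The median ratio was 2.38 in Txnrd1-deficient and 0.102 in control livers for the first probe set, while the arithmetic means were 2.38 ± 1.85 and 1.78 ± 3.38 (SD, n = 4 each). In whole liver, fewer cells of a type and less RNA per cell cannot be told apart. The mean log2 ratio of 9 hepatocyte markers, the cells that make hepcidin, lay between -0.36 and 0.15 in Txnrd1-deficient and between -0.06 and 0.18 in control livers, and single markers ranged more widely (Ass1 from -2.02 to 0.46 and from -0.90 to 0.77). Their part in the Hamp values was not tested.

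**Figure D1:**
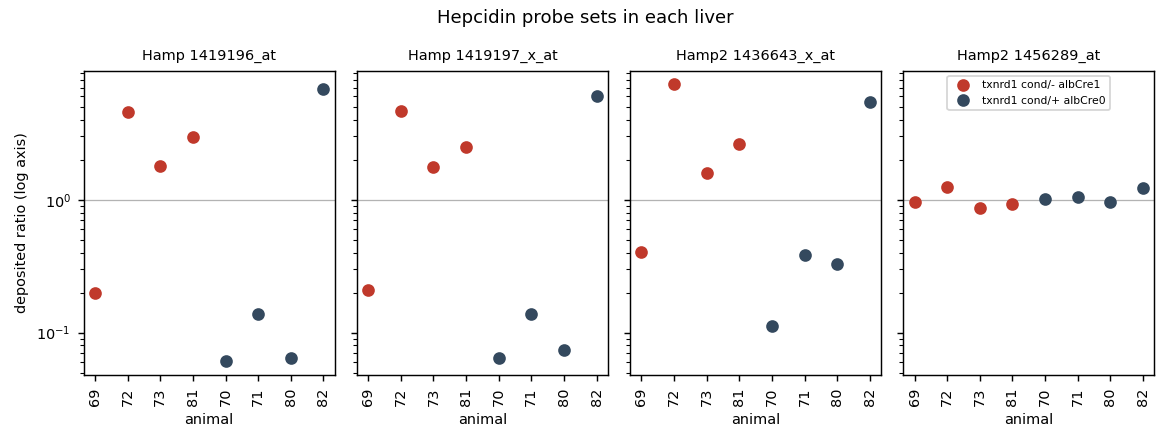
Deposited ratio of the 4 hepcidin probe sets in each liver on a log axis, 1 point per animal, with Txnrd1-deficient livers (txnrd1 cond/- albCre1) left of control livers (txnrd1 cond/+ albCre0). Animals 72, 73, 81 and 82 are high in the first 3 panels, and the second Hamp2 probe set stays between 0.863 and 1.25.

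The 2 probe sets of Hamp2, the hepcidin paralog, gave different patterns. Probe set 1436643_x_at had ratios of 0.406, 7.38, 1.58 and 2.61 in Txnrd1-deficient livers 69, 72, 73 and 81 and 0.112, 0.387, 0.326 and 5.41 in control livers 70, 71, 80 and 82, so the same 4 livers were high as for Hamp. Its genotypes overlapped (log2 difference 1.84 ± 1.16 SE, limma adjusted p = 1.00, exact permutation p = 0.229). Probe set 1456289_at ran from 0.863 to 1.25 in Txnrd1-deficient and from 0.960 to 1.22 in control livers, with a log2 difference of -0.09 ± 0.14 SE (exact permutation p = 0.514). The suffix of 1436643_x_at again marks probes that can bind related transcripts, and how much of its value is Hamp2 mRNA was not tested.

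Likeness to Hamp over the 8 livers was ranked by Pearson's r of log2 ratios with the mean of both Hamp probe sets, among 34943 other probe sets of 1 gene symbol. The highest was Hamp2 1436643_x_at (r = 0.97, n = 8), which spanned 65.9-fold. The next were A930001A20Rik (r = 0.96), Ntrk2 (0.96), Msl1 (0.96) and Usp20 (0.95), each spanning only 1.34- to 1.43-fold between its lowest and highest liver. The coefficients are a description of these arrays, given without p because the genes were picked as the highest. Since Hamp ratios fall into 4 high and 4 low livers, r mainly reports that division, and neither side holds enough livers for a value of its own. An absolute r of at least 0.7 with Hamp was reached by 8.40% of probe sets.

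Ferritin heavy chain was the member whose genotypes separated. Probe set 1448771_a_at of Fth1, which encodes the ferroxidase subunit, had ratios of 1.08, 1.21, 1.01 and 1.47 in Txnrd1-deficient livers 69, 72, 73 and 81, against 0.939, 0.989, 0.913 and 0.959 in control livers 70, 71, 80 and 82. Probe set 1427021_s_at had 1.04, 1.03, 1.07 and 1.30 in Txnrd1-deficient livers and 0.964, 0.948, 0.948 and 0.848 in control livers, in the same order of animals. For both, every Txnrd1-deficient liver was above every control liver, which was so for 404 (0.897%) of the 45033 probe sets with complete values. Animal 81 was the highest in each.

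The Fth1 differences were small, at 1.24-fold (log2 0.31 ± 0.13 SE) and 1.19-fold (0.25 ± 0.12 SE), with limma adjusted p = 1.00 for both and the smallest possible exact permutation p, 0.0286. They are below the 1.5-fold threshold. Without animal 81 the log2 differences were 0.21 and 0.18. These 2 were the only ones of the 20 probe sets whose groups did not overlap. Both are annotated to Fth1 alone, so they are not independent readings. Whether the probes of 1427021_s_at also bind other transcripts was not tested. Groups that do not overlap always give the smallest possible permutation p, so that p restates their separation.

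Ferritin light chain, which supports the iron core within the ferritin shell, was highest in animal 81 in all 3 of its probe sets, and its genotypes overlapped. Probe set 1422301_at, the one also annotated to Mir692 loci, had 1.12, 1.38, 0.865 and 2.17 in Txnrd1-deficient livers 69, 72, 73 and 81 and 0.719, 0.869, 0.610 and 1.37 in control livers 70, 71, 80 and 82. Its log2 difference was 0.62 ± 0.31 SE (limma adjusted p = 1.00, exact permutation p = 0.171), over 1.5-fold but not past the p threshold, and it was 0.37 without animal 81. Of the other probe sets, 1422302_s_at had 0.999, 1.01, 1.07 and 1.24 in Txnrd1-deficient and 0.870, 0.885, 0.865 and 1.00 in control livers, overlapping only where animal 69 and animal 82 met. Probe set 1418364_a_at had 0.939, 1.11, 1.05 and 1.44 in Txnrd1-deficient and 0.821, 0.923, 0.784 and 1.25 in control livers. Their log2 differences were 0.25 ± 0.12 SE and 0.27 ± 0.18 SE (exact permutation p = 0.0571 and 0.20), and the second was 0.15 without animal 81 and 0.41 without animal 82. In each of the 3 probe sets, liver 82 was the highest control, as it was for Hamp, whereas it was the lowest control for 1 probe set of Fth1 and between the others for the second.

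**Figure D2:**
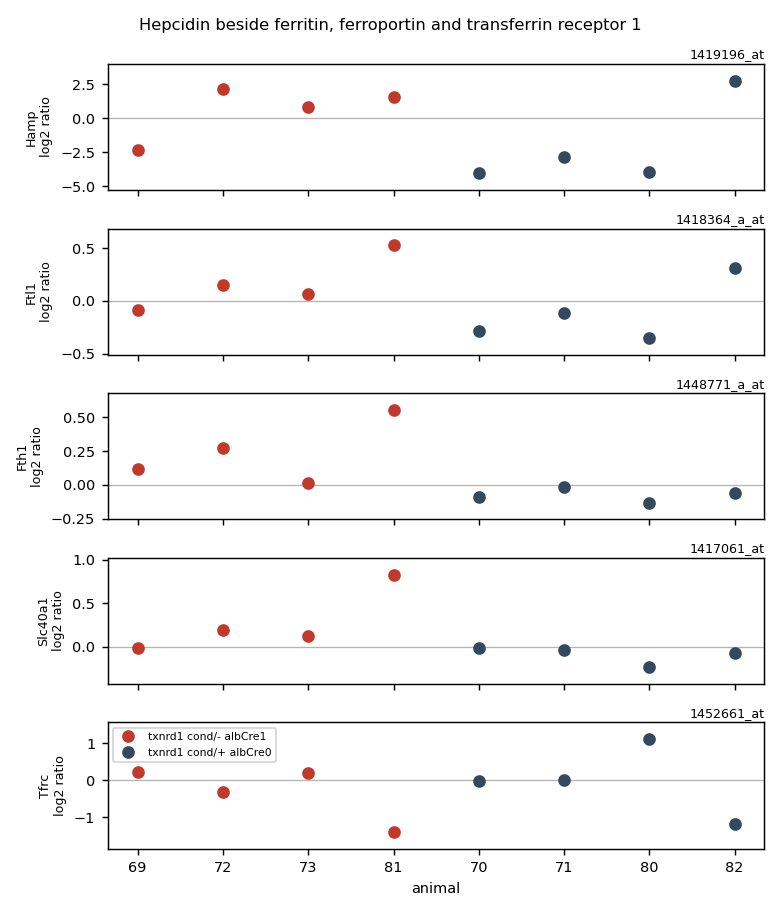
Log2 of the deposited ratio of one probe set each of Hamp, Ftl1, Fth1, Slc40a1 and Tfrc in the 8 livers, 1 point per animal, Txnrd1-deficient livers on the left; each panel has its own axis. Hamp is highest in control liver 82, while Ftl1, Fth1 and Slc40a1 are highest in animal 81. Ftl1 is next highest in liver 82, and Tfrc is lowest in animals 81 and 82.

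Ferroportin mRNA was highest in animal 81 in both of its probe sets. Slc40a1 probe set 1417061_at had ratios of 0.990, 1.15, 1.09 and 1.78 in Txnrd1-deficient livers 69, 72, 73 and 81, against 0.994, 0.977, 0.851 and 0.953 in control livers 70, 71, 80 and 82, and 1448566_at had 1.02, 1.14, 0.966 and 1.89 against 1.10, 0.964, 0.836 and 0.773. Both overlapped between genotypes, with log2 differences of 0.37 ± 0.18 SE and 0.40 ± 0.22 SE, limma adjusted p = 1.00 for both and exact permutation p = 0.0571 and 0.114. Without animal 81 both were 0.19. Macrophages of the liver, the Kupffer cells, also express ferroportin. The mean log2 ratio of 12 of 12 Kupffer cell markers was 0.08, -0.29, -0.18 and 0.15 in livers 69, 72, 73 and 81 and 0.27, -0.05, 0.04 and -0.32 in livers 70, 71, 80 and 82. Their part in the Slc40a1 values was not tested.

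No difference between genotypes was detected for transferrin receptor 1, and only one of its probe sets ranged widely. Tfrc probe set 1452661_at had 1.18, 0.802, 1.15 and 0.382 in Txnrd1-deficient livers 69, 72, 73 and 81, against 0.991, 1.00, 2.16 and 0.439 in control livers 70, 71, 80 and 82. Animals 81 and 82 were thus the lowest in their groups, and the span over all livers was 5.65-fold. Its log2 difference of -0.30 turned to 0.058 without animal 81 and to 0.079 without animal 80. The other 2 probe sets, 1422966_a_at and 1422967_a_at, spanned 1.71- and 1.78-fold. For the 3 probe sets in this order, log2 differences were -0.30 ± 0.48 SE, -0.0019 ± 0.20 SE and -0.14 ± 0.20 SE, with exact permutation p = 0.657, 0.971 and 0.571. The 3 Tfrc array controls, which lie at the 5′ end, middle and 3′ end of the transcript, had ratios of 0.766 to 1.20 in Txnrd1-deficient and 0.849 to 1.24 in control livers and spanned 1.26- to 1.49-fold over all livers.

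Tfr2, the hepatocyte receptor that senses transferrin-bound iron, was flat in 1425381_a_at (0.832 to 1.15 in Txnrd1-deficient and 0.973 to 1.14 in control livers, log2 difference -0.02 ± 0.13 SE). In 1459994_x_at it ran from 0.652 to 1.28 and from 0.868 to 1.34 (log2 difference -0.10 ± 0.22 SE). Hfe encodes an MHC class I-like protein that partners the transferrin receptors. Its probe set 1422645_at had 1.13, 1.18, 0.875 and 1.46 in Txnrd1-deficient livers 69, 72, 73 and 81, against 0.932, 0.806, 0.800 and 1.07 in control livers 70, 71, 80 and 82, and 1450702_at had 0.991, 0.858, 1.12 and 1.41 against 1.09, 0.623, 1.00 and 0.883. Animal 81 was again the highest in both. The log2 differences of 0.35 ± 0.17 SE and 0.29 ± 0.21 SE did not pass (limma adjusted p = 1.00 for both, exact permutation p = 0.114 and 0.343). Without animal 81 they were 0.23 and 0.16, and the second was 0.12 without animal 71.

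Bmp6, the BMP ligand through which iron loading is signalled to hepatocytes, had ratios of 1.06, 1.12, 1.17 and 0.922 in Txnrd1-deficient livers 69, 72, 73 and 81, against 0.915, 0.538, 1.12 and 0.936 in control livers 70, 71, 80 and 82. Its log2 difference was 0.33 ± 0.21 SE (exact permutation p = 0.229), liver 71 was the lowest, and without it the difference was 0.11. Id1, a transcriptional target of BMP signalling often used as its read-out, had 1.02, 0.892, 1.17 and 1.36 in Txnrd1-deficient and 1.44, 0.546, 0.972 and 0.921 in control livers (0.26 ± 0.26 SE, exact permutation p = 0.514, and 0.011 without liver 71). Neither Bmp6 nor Id1 was high in the same 4 livers as Hamp: control liver 82, with the most Hamp, had 0.936 for Bmp6 and 0.921 for Id1, and control liver 70, with the least, had the highest Id1.

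**Figure D3:**
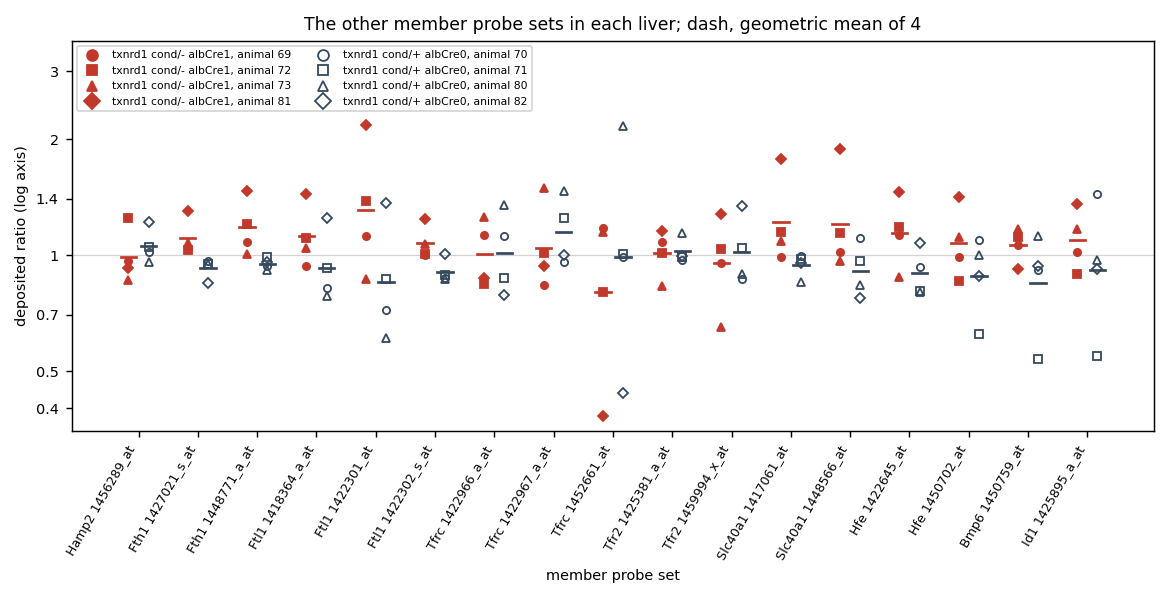
Deposited ratio (log axis) of the 17 member probe sets other than the 3 of wide range shown for hepcidin, with filled symbols for Txnrd1-deficient livers on the left of each pair, open symbols for control livers on the right, and dashes for geometric means of 4. The 2 Fth1 probe sets are the only ones whose groups do not overlap, and animal 81 (filled diamond) is the highest liver for Fth1, Ftl1, Slc40a1 and Hfe.

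Over the 10 genes, 0 of 20 probe sets met the adjusted threshold and 0 the study's thresholds, against 0.0266% and 0.562% of all probe sets. In limma 1 of 20, of Fth1, had an unadjusted p of at most 0.05, against 1.82% of all, and that p was above 0.05 with array weights, with either test of the probe set alone, with the SD filter and without 1 of 6 of the 8 animals. 14 were higher and 6 lower in Txnrd1-deficient livers, against 51.2% of all probe sets higher, and their median log2 difference was 0.28, against 0.0041 over all. Probe sets of one gene share their mRNA, so these are not independent counts. The differences of 1.5-fold or more were 4, of Hamp, Hamp2 and Ftl1, and each rested on widely spread livers.

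**Figure D4:**
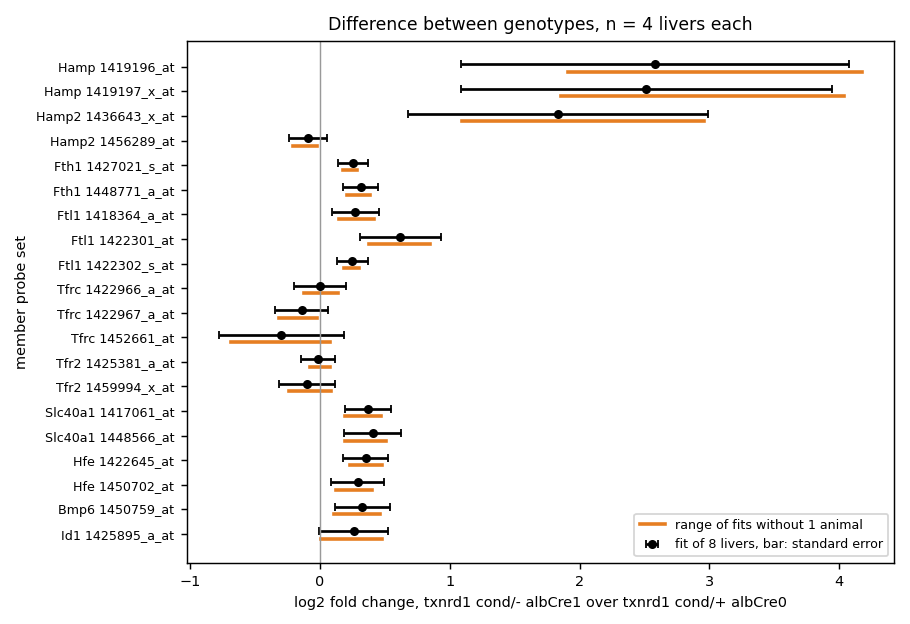
Log2 fold change of each member probe set, Txnrd1-deficient over control livers, with black points and bars for the fit of 8 livers and its standard error and orange lines for the range of the fits without 1 animal. The hepcidin bars are the widest, and Hamp runs from 1.91 to 4.18 depending on the animal left out.

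Of 82 other genes listed for iron handling and its regulation, 77 were measured by a probe set of 1 symbol. 3 of the 77, Nqo1, Blvrb and Slc48a1, passed the study's thresholds in limma on gene means, all higher in Txnrd1-deficient livers, against 0.572% of 18193 genes higher and 0.0824% lower, and 72 of the 77 differed by under 1.5-fold. At an unadjusted p of at most 0.05 with no fold minimum, 4 of the 77 passed, these 3 and Steap4. Of all probe sets taken singly 1.82% passed that p, and the share of all genes was not counted. The 77 genes had a median log2 difference of 0.023, against 0.0030 over all genes. The study had picked Nqo1, Blvrb and Slc48a1 on these same samples, so they are not independent evidence.

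Nqo1, listed with ferritin genes but best known as a quinone reductase and Nrf2 target, had ratios of 1.60, 1.57, 2.72 and 1.73 in Txnrd1-deficient livers 69, 72, 73 and 81, against 0.376, 0.253, 0.431 and 0.228 in control livers 70, 71, 80 and 82 (5.97-fold, limma adjusted p = 0.0058). It was the only one of the 77 past the adjusted threshold, which 0.077% of all genes passed as higher, and without it 2 of 76 listed genes passed the study's thresholds. Blvrb, biliverdin reductase B of heme breakdown, had 1.20, 1.41, 1.20 and 1.90 in Txnrd1-deficient and 0.791, 0.782, 0.576 and 0.780 in control livers (1.93-fold, limma adjusted p = 0.20). Slc48a1, which moves heme out of lysosomes, had 1.27, 1.12, 1.41 and 3.31 in Txnrd1-deficient and 0.680, 0.692, 0.711 and 0.787 in control livers (2.24-fold, limma adjusted p = 0.81), and it did not pass the study's thresholds in an equal-variance test of the linear ratios. The genotypes did not overlap for any of the 3, and animal 81 was the highest for Blvrb and Slc48a1. They also did not overlap for Ciapin1 of the same 77, which did not pass the study's thresholds. Of all probe sets taken singly 0.897% separated in this direction, and the share of all genes was not counted.

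Heme oxygenase 1 (Hmox1), which releases iron from heme and was chosen after its values were seen, had 1.35, 0.971, 0.920 and 5.96 in Txnrd1-deficient livers 69, 72, 73 and 81, against 1.02, 0.564, 1.51 and 0.565 in control livers 70, 71, 80 and 82. The groups overlapped apart from animal 81 (log2 difference 0.97 ± 0.57 SE, limma adjusted p = 1.00, and 0.34 without that animal). Animal 81 thus carried the highest ratio for Fth1, Ftl1, Slc40a1, Hfe, Hmox1, Blvrb and Slc48a1, and its hepatocyte marker mean of -0.36 was the lowest of the 8 livers. That mean rested on Ass1 (-2.02) and Tat (-0.96), and the other 7 markers lay between -0.36 and 0.11 in this animal. Of erythroid markers 6 of 12 were measured, with a mean log2 ratio of -0.20 in animal 81, inside the range of -0.29 to 0.12 in Txnrd1-deficient and -0.23 to 0.15 in control livers. The part of these cells in the animal 81 values was not tested.

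None of the 22 measured genes of BMP and SMAD signalling passed the study's thresholds in limma (median log2 difference 0.0054). Its extremes were the BMP co-receptor Hjv at 0.33 ± 0.20 SE (0.15 to 0.48 without 1 animal) and the inhibitory Smad6 at -0.36 ± 0.27 SE (-0.58 to -0.21). None of 8 genes of IL6 and STAT3 signalling passed (median -0.14), between the kinase Jak2 at 0.04 and the receptor Il6ra at -0.46 ± 0.21 SE (-0.62 to -0.28 without 1 animal, and past the study's thresholds without liver 71). Steap4, a ferric reductase, was the lowest of 22 uptake and transport genes at -0.37 ± 0.13 SE (limma adjusted p = 1.00), and Lcn2 of the same list, a siderophore-binding protein named after its values were seen, stood at 0.70 ± 0.47 SE. In ferritin storage and release the lowest of 7 genes was the iron chaperone Pcbp1 at -0.0088.

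The 6 genes of iron regulatory proteins and their turnover ran from -0.16 (Rbx1, of a ubiquitin ligase) to 0.29 (Ireb2, iron regulatory protein 2, at 0.13 to 0.42 without 1 animal). The 12 of 15 measured genes of iron-sulfur cluster assembly ran from -0.08 (Isca1) to 0.21 (Ciapin1). None of these passed. Of the listed genes that are known targets of the BMP branch, picked for that, Id2, Id3, Smad6, Smad7 and Atoh8 stood at log2 ratios of 1.55, 1.06, 0.33, 0.52 and 0.31 in Txnrd1-deficient liver 81. In control liver 82 they stood at 0.47, 0.85, 0.55, 0.07 and 0.90, and the STAT3 target Socs3 at 0.21. Socs3 was highest in control liver 70 (0.80), which had the least Hamp, and Smad6 in control liver 80 (0.60), also low in Hamp. Smad7 was higher in control livers 70 (0.17) and 80 (0.16) than in liver 82. The member Id1, also a BMP target, was highest in control liver 70 (0.52). Livers 81 and 82 were the highest of their groups for Id2, Id3 and Atoh8. Liver 72, with high Hamp as well, had -0.05, 0.0043 and -0.54 for these genes, and liver 73, also high, had 0.001, 0.20 and -0.05. A link of these genes with the Hamp values was not tested.

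**Figure D5:**
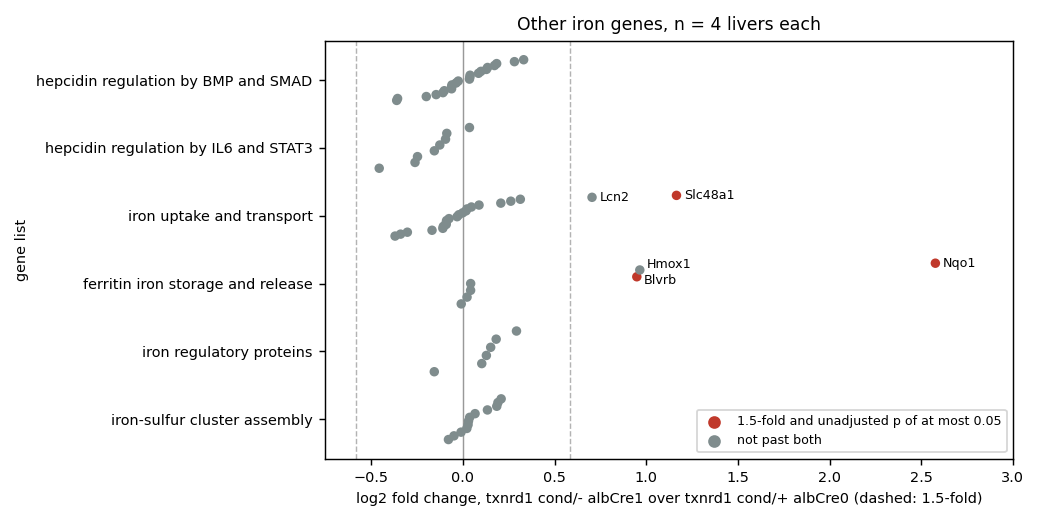
Log2 fold change, Txnrd1-deficient over control livers, of the 77 other iron genes in 6 lists, 1 point per gene, with dashed lines at 1.5-fold. Red points are Nqo1, Blvrb and Slc48a1, past 1.5-fold and an unadjusted p of at most 0.05, and Hmox1 and Lcn2 are beyond 1.5-fold without passing.

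Markers of other liver cells varied with animal beside Hamp. The mean log2 ratio of 11 endothelial markers, which mark the cells that make most liver Bmp6, was 0.15, -0.39, -0.08 and -0.03 in Txnrd1-deficient livers 69, 72, 73 and 81 and 0.23, -0.10, 0.39 and -0.32 in control livers 70, 71, 80 and 82. It was lowest in livers 72 and 82, which had the highest Hamp. The Kupffer cell marker mean was also lowest in livers 72 and 82 (-0.29 and -0.32), and these livers stood apart over all probe sets as well. The 8 stellate cell markers ranged from -0.28 to 0.16 in Txnrd1-deficient and from -0.35 to 0.20 in control livers, with livers 81 and 82 lowest in their groups, and 7 lymphocyte markers from -0.11 to 0.13 and from -0.04 to 0.10. The 8 neutrophil markers ranged from -0.64 to 0.23 and from -0.50 to 0.72, lowest in livers 81 and 82, and 1 of them, Prtn3, named after its values were seen, passed the study's thresholds as lower (log2 difference -1.20, limma adjusted p = 1.00). The part of these cells in the Hamp values was not tested.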

How the data were processed

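Total liver RNA of 8 mice was labelled with biotin and hybridized to Affymetrix mouse whole-genome arrays, 1 per animal. The authors used GeneSpring, and the submitters' processing notes name RMA; no version of it is stated. The deposited values are linear ratios per probe set, relative to about the median of the 8 arrays, so the study's minimum signal of 50 could not be applied. Signal depth does not apply to arrays, and their number limits the precision. Log2 ratios of 45037 probe sets (64 array controls left out, 5 empty values kept empty) and of gene means of probe sets with 1 symbol were compared with limma 3.58.1 in R 4.3.3 (lmFit and eBayes, 2-sided, Benjamini-Hochberg over all features), and single probe sets with an exact permutation test. Symbols, positions and promoters came from RefSeq (GRCm38.p6), and alignments and plots were made with Biopython 1.88 and matplotlib 3.10.9 in Python 3.11.15. The code was tested on simulated data. Named genes are all member probe sets, the other iron genes past the study's thresholds, the highest and lowest of each list, and the 5 probe sets most like Hamp. The members, lists and rules were chosen with earlier results of these data known. Alternatives were median centring, quantile normalization, a robust fit, array weights, single-probe tests, a covariate that split animal numbers at 75, a filter on SD, other gene summaries and leaving out each animal. Each animal is a separate mouse.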

Additional observations from a re-analysis of the deposited data

Results flagged for a closer look

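Dixon's ratio was taken on the linear ratios of 74 groups of 4 livers (37 member probe sets and named genes, each in both genotypes). In 12 groups 1 liver lay far from the other 3 at the 95% critical value. About 1 in 20 groups does so by chance where values are normally distributed, which was not checked for these ratios. Log2 values, used in the main tests, were not tried, and some of these calls may depend on the scale. The probe sets of a gene share their mRNA, and the named genes were picked by their values, so 12 of 74 cannot be set against 1 in 20. Among Txnrd1-deficient livers, animal 81 was far above the next liver for Hmox1 (5.96, next 1.35), Slc48a1 (3.31, next 1.41) and Fth1 1427021_s_at (1.30, next 1.07), and animal 73 was far above for Nqo1 (2.72, next 1.73). Among control livers, animal 82 was far above the others for both Hamp probe sets (6.85 and 6.05, next 0.139 for each), for Hamp2 1436643_x_at (5.41, next 0.387) and for Ftl1 1422302_s_at (1.00, next 0.885), and far below for Fth1 1427021_s_at (0.848, next 0.948) and Ciapin1 (0.801, next 0.948). Control animal 80 was far above for Tfr2 1425381_a_at (1.14, next 0.997) and far below for Blvrb (0.576, next 0.780).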

How the results depend on the processing

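No paired analysis was possible because the groups share no animal number. The count of 2 member probe sets at an exact permutation p of at most 0.05, both of Fth1, was the same with median centring, quantile normalization and linear ratios, which were chosen after seeing the data. Only groups that do not overlap reach that p. Linear ratios keep the order of the livers and so could not change the count, and median centring moved each array very little. The count of member probe sets at the study's thresholds, 0 with all livers, was 1 with a covariate that split animal numbers at 75 (Ftl1 1422301_at) and 4 with a filter that kept the probe sets of larger SD, and 0 to 4 when 1 animal was left out: 4 without control liver 82 (both Hamp, Hamp2 1436643_x_at and Ftl1 1422301_at), 2 without animal 69 (both Hamp) and 1 without animal 73 (Ftl1 1422301_at). The 4 with the SD filter were both Hamp, Hamp2 1436643_x_at and Ftl1 1422301_at. The SD filter chooses probe sets by their spread and so changes the variance that limma borrows. The other iron genes at the study's thresholds numbered 3, and 5 with the SD filter, 4 with the covariate and without animal 71 or 80, and 2 with the equal-variance test of linear ratios, where Slc48a1 was not past the threshold. Over all probe sets, the adjusted count of 12 was 0 with either test of each probe set alone, 20 with array weights, 59 with the SD filter and 3 to 8 without 1 animal, and the unadjusted count of 253 was 163 and 160 with the single tests, 393 with the SD filter, 119 with genes in place of probe sets and 206 to 479 without 1 animal. Directions that changed were, none of them of a called value: Hamp2 1456289_at as part of its gene mean (0.87, dominated by the other probe set); Tfrc 1422966_a_at with quantile normalization (0.0033) and array weights (0.044); Tfr2 1425381_a_at and Pcbp1 with the covariate (0.028 and 0.051); and, without 1 animal, Tfrc 1422966_a_at (-0.12 to 0.14), Tfrc 1452661_at (-0.69 to 0.079), Tfr2 1425381_a_at (-0.079 to 0.078), Tfr2 1459994_x_at (-0.24 to 0.083), Isca1 (-0.16 to 0.034) and Pcbp1 (-0.099 to 0.078). Except where given, the cause of these changes was not tested. With 4 animals a group and a hormone mRNA that varies this widely within each genotype, a difference in Hamp of several fold could not be told from none. Ratios keep no level, so probe sets near background could not be set aside.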
